A study of Homo sapiens with 12 samples.

Results

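The 6 RNA-seq libraries of the TPC-1 cell line, of 12 libraries in the series, carry replicate numbers 1 to 3 in each of 2 arms, and the gene classes whose level moved with that number whichever siRNA was given are described here. TPC-1 and K1 are lines derived from papillary thyroid cancer, both labelled wild type in genotype. The 3 libraries of the NC arm came from TPC-1 cells given a negative control siRNA, and the 3 libraries of the siRNA arm from TPC-1 cells given an siRNA against TRIM35, a tripartite motif E3 ubiquitin ligase. The remaining 6 libraries are the same 2 arms in K1 and serve here only as a comparison. All 12 were harvested 24 h after transfection and have 1 batch label in common. What the replicate number stands for is not given in the labels, nor whether the libraries came from separate cultures, so a p-value here measures only how these libraries vary, and that variation may be technical in origin. The title of NC library 3 names another line, while its other labels and its column say TPC-1, and its counts correlated with the other TPC-1 libraries at 0.983 or higher and with K1 libraries at 0.828 or lower.

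Total counts ran from 17965808 to 22436904 in the 6 libraries, and 22526 to 24335 genes had at least 1 count. TRIM35 was listed at 2.86, 2.91 and 3.06 FPKM (fragments per kilobase of exon scaled to the library total) in NC libraries 1, 2 and 3, and at 2.34, 2.56 and 2.58 FPKM in siRNA libraries 1, 2 and 3. TRIM35 was not among the genes called for siRNA against NC in the fits given below. It also did not pass the test for the replicate number (log2 0.14, SE 0.15, adjusted p = 0.531, edgeR). Of 10 thyroid markers, PAX8, FOXE1 and HHEX were above 1 FPKM, while NKX2-1 and SLC5A5 were listed at 0 and TG and TSHR at 0.03 FPKM or less in every TPC-1 library. Of 5 epithelial markers, KRT8 and KRT18 had a mean above 1 FPKM, KRT19 and EPCAM did not, and CDH1 was listed at 0. Summed markers of leukocytes reached at most 0.91 FPKM, of endothelium 0.38 FPKM and of fibroblasts 2.55 FPKM in any of the 6 libraries. In bulk RNA, fewer cells in a given state and less RNA per cell cannot be told apart.

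As background, the classes that come up below share few functions but differ in transcript form. Messenger RNAs for ribosomal proteins and for the small subunits of the respiratory chain are short, abundant and long-lived, and those for the mitochondrially encoded subunits are transcribed and processed inside the organelle. Transcripts for DNA replication, mitosis and tRNA charging are as a rule longer and tied to growth and cell division. Messenger RNAs also differ in the share of G or C at the third base of their codons, called GC3 here, which varies widely between human genes and usually leaves the encoded protein unchanged.

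The starts of the coding sequences of 6 genes with large and well-determined changes are shown beside this last contrast. They have the 3 smallest p per direction among the 15 largest called changes of each direction, leaving out genes without a complete coding sequence and those of 1 chromosome, and were not chosen by GC3. Each line gives the first 72 bases (24 codons) of the coding sequence from GENCODE release 29, 5′ to 3′, with G or C at the third position of a codon in capitals. The first 3 genes were higher in the libraries numbered 3 than in those numbered 1, and the last 3 were lower.

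RABEP1: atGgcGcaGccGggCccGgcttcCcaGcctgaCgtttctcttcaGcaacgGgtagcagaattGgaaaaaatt

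WDR48: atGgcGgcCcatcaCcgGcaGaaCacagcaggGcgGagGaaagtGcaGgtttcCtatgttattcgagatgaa

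IGF2BP3: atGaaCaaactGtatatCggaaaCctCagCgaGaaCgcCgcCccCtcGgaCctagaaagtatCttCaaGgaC

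S100A11: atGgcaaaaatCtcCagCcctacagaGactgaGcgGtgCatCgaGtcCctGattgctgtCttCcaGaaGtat

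SH3BGRL3: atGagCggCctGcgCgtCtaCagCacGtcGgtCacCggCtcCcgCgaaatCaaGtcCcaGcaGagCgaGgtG

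MRPS15: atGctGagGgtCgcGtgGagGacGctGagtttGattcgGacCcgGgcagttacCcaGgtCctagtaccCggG

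Over the whole coding sequence, GC3 was 42.7% in RABEP1 (chr17:5282265-5386340 of hg38, plus strand), 36.2% in WDR48 (chr3:39052013-39096671, plus strand) and 46.6% in IGF2BP3 (chr7:23310209-23470491, minus strand). It was 58.1% in S100A11 (chr1:152032506-152047907, minus strand), 82.8% in SH3BGRL3 (chr1:26280086-26281522, plus strand) and 61.1% in MRPS15 (chr1:36455718-36464384, minus strand). The 3 genes that were higher also had the longer coding sequences, of 2586, 2031 and 1737 bases without the stop codon. The 3 that were lower had 315, 279 and 771 bases. The windows shown are less far apart than the whole sequences: 12, 13 and 18 of 24 codons end in G or C in the first 3 genes, and 16, 23 and 18 in the last 3. Single genes depart from this contrast: among the largest changes, MCM2 (GC3 77.3%) and EIF3L (64.4%) were higher and MT-ATP8 (41.2%) was lower.

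S100A11, a small calcium-binding protein, was at 719.6, 449 and 347 FPKM in NC libraries 1, 2 and 3 and at 926, 589 and 355 FPKM in siRNA libraries 1, 2 and 3. Both libraries 1 were the highest of their arm and both libraries 3 the lowest, and the fitted level in libraries 1 was 2.28 times that in libraries 3. The number term was -1.19 on the log2 scale (SE 0.12, adjusted p = 4.24e-05, edgeR quasi-likelihood test, Benjamini-Hochberg adjustment), where the number term is the fitted difference of libraries 3 minus libraries 1 at equal treatment. RABEP1, an effector of the endosomal GTPase RAB5, ran the other way, at 4.83, 7.94 and 11.7 FPKM in NC libraries 1, 2 and 3 and 4.24, 6.10 and 11.1 FPKM in siRNA libraries 1, 2 and 3. Its fitted level in libraries 3 was 2.56 times that in libraries 1 (number term 1.35, SE 0.12, adjusted p = 2.68e-05).

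**Figure D1:**
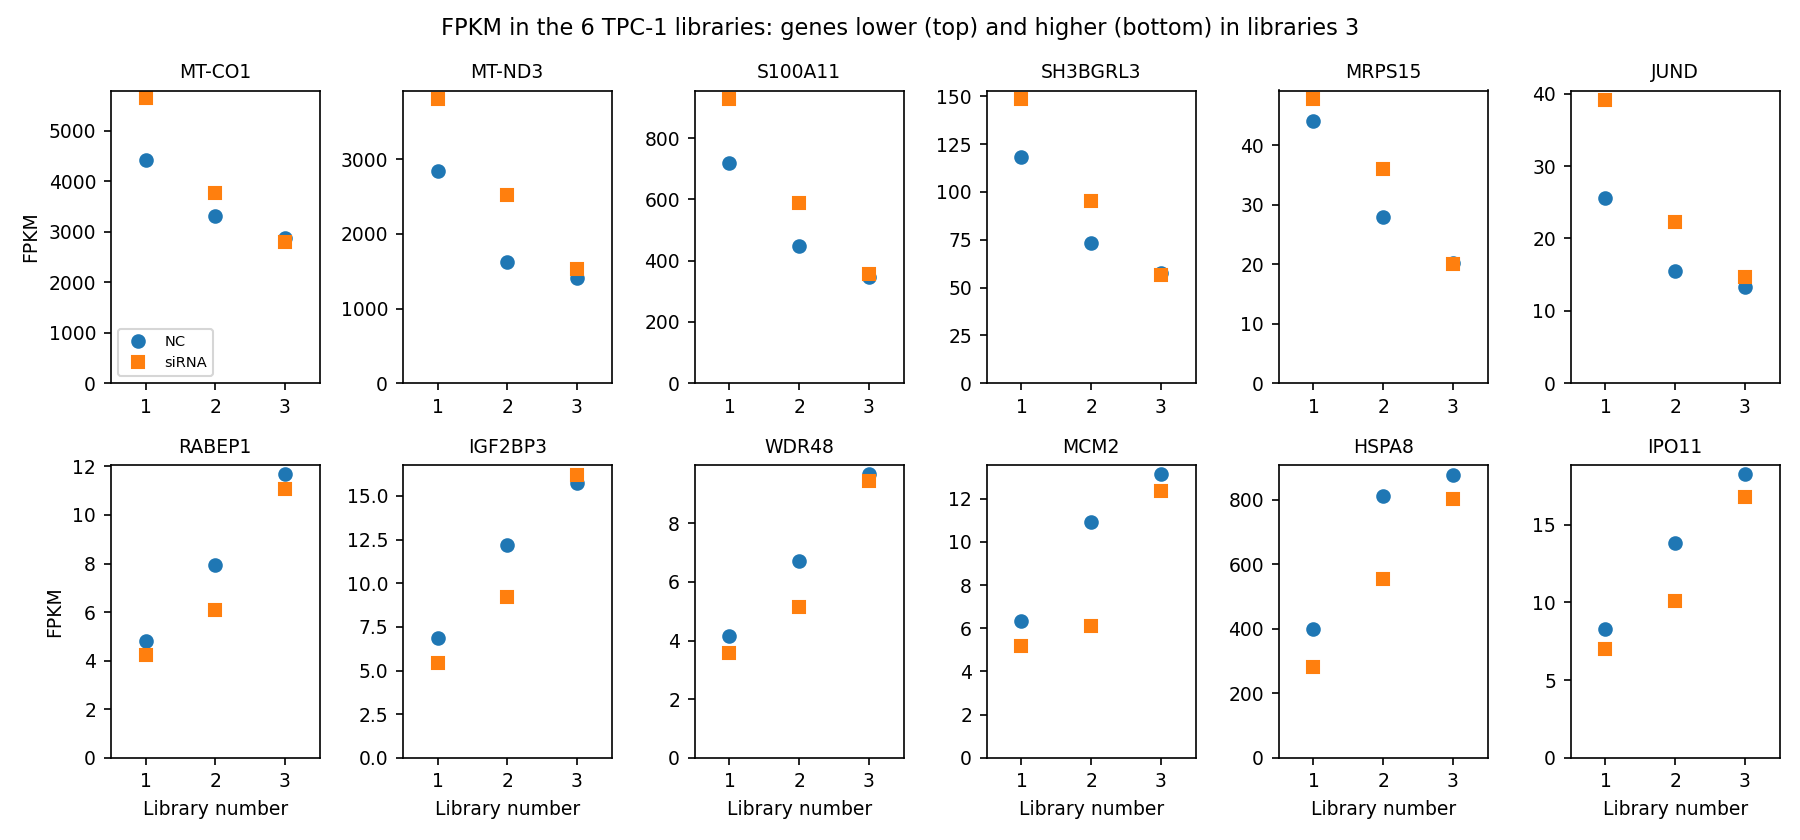
FPKM (vertical axes, from 0) in the 6 TPC-1 libraries by library number, with circles for NC and squares for siRNA, 1 point per library. The top row shows 6 genes lower in libraries 3 (S100A11 was at 719.6 and 926 FPKM in libraries 1 against 347 and 355 FPKM in libraries 3) and the bottom row 6 genes higher there. Libraries 1 and 3 do not overlap in any panel, but the genes were chosen among called genes, of which 1940 of 1940 higher and 1670 of 1673 lower have no overlap. Nothing is read from it.

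Across the 14530 genes tested, 1940 were higher in libraries 3 (13.4%) and 1673 were lower (11.5%), together 24.9%. The median called gene differed by 0.50 upward and by -0.64 downward on the log2 scale, and 115 of the higher and 315 of the lower genes differed by more than 2-fold. Leaving out 1 library reduced the count most for siRNA library 3, to 353 higher and 384 lower. Without NC library 1 it was 575 and 532, without NC library 3 it was 925 and 918, and without siRNA library 1 it was 1266 and 1216.

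The 3 minus 1 differences of the arms were compared over all tested genes. Libraries 3 lay above libraries 1 without overlap in 35.1% of tested genes and below them in 33.3%. The called genes had the same sign in both arms, but the call uses both arms, so nothing is read from this. Among the 6174 genes at a mean of 5 FPKM or more, the 3 minus 1 differences of the arms correlated across genes at r = 0.91 and 86.9% had the same sign, a description over genes that come from the same 4 libraries. Over all 14530 genes, r was 0.627 and 78.2% had the same sign. No gene passed the test of a difference in number term between the arms (0 of 14530 by edgeR, with 179 at an unadjusted p under 0.05, and 0 by DESeq2, with 25). That test has 2 residual degrees of freedom, and missing its threshold does not show that the arms were alike.

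**Figure D2:**
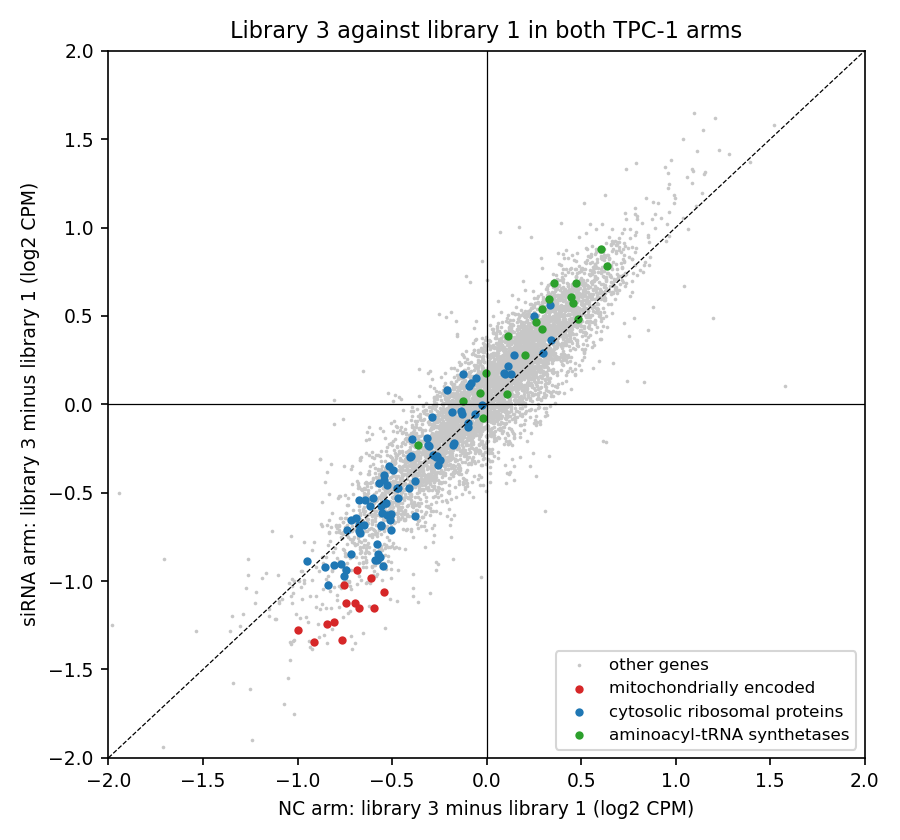
Difference of library 3 minus library 1 in log2 CPM (counts scaled to the library total) in the NC arm (horizontal axis) and the siRNA arm (vertical axis) for the 6174 genes at a mean of 5 FPKM or more, 7 of them outside the axes; the dashed line marks equal differences. The 13 mitochondrially encoded genes lie at the lower left below the dashed line, most ribosomal protein genes at the lower left along it, and most aminoacyl-tRNA synthetase genes at the upper right.

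On the first principal component over the tested genes, the libraries numbered 2 lay between the others of their arm. This component held 48.9% of the variance and gave -21.1, 7.03 and 29.2 for NC libraries 1, 2 and 3 and -31.7, -11.1 and 27.7 for siRNA libraries 1, 2 and 3. A departure of libraries 2 from the mean of libraries 1 and 3 was called in 3.67% of genes, 136 higher (0.936%) and 397 lower (2.73%), and 114 of those genes were also called higher and 16 called lower in libraries 3. That test pools the arms, so bends of opposite direction partly cancel in it. Over 2128 called genes with larger changes, library 2 lay at a median of 0.573 of the way from library 1 to 3 in NC and 0.339 in siRNA.

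Exonic length of the gene, which is not the length of 1 transcript, separated the directions. Among the shortest 5th of genes (exonic length 62 to 2610 bases), 3.44% were higher and 23.6% lower in libraries 3, with a median number term of -0.31. Among the longest 5th (8810 bases or more), 22.0% were higher and 5.92% lower, with a median of 0.14. Coding length, taken over genes with a complete coding sequence only, gave the same order. Its gap was wider in the shares called and narrower in the medians, which were -0.21 and 0.18 in the outer 5ths. Genes with 783 coding bases or fewer were higher in 5.86% and lower in 27.7% of cases, and genes with 2590 or more were higher in 25.0% and lower in 3.80%. Counts from the longest 5th of genes made up a mean of 24.9% over libraries 1 and 27.8% over libraries 3 (exact two-sided permutation p = 0.167 within arms, where the smallest possible value is 0.0556), and the 100 most abundant genes a mean of 22.4% and 20.3% (p = 0.0556). By library, the longest 5th held 25%, 25.3% and 28% in NC libraries 1, 2 and 3. It held 24.7%, 24.2% and 27.6% in siRNA libraries 1, 2 and 3, so siRNA library 2 was the lowest. The genes called higher had a median coding length of 1990 bases against 792 bases for those called lower.

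Base composition separated them as well. In the 5th of genes with the lowest GC3 (22.3% to 41.0%), 27.4% were higher and 8.05% lower, and in the 5th with the highest GC3 (74.8% and above), 3.35% were higher and 15.5% lower. The median GC3 of genes called higher was 46.4%, and of those called lower 63.1%. When protein-coding genes at 5 FPKM or more were divided by length and by GC content into 3 groups each, both divisions kept their order. The short genes of high GC content had 4.71% higher and 31.9% lower with a median of -0.20, and the long genes of low GC content had 39.8% higher and 4.98% lower with a median of 0.25. Short genes of low GC content (median -0.13) were still lower, and long genes of high GC content (median 0.12) still higher.

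**Figure D3:**
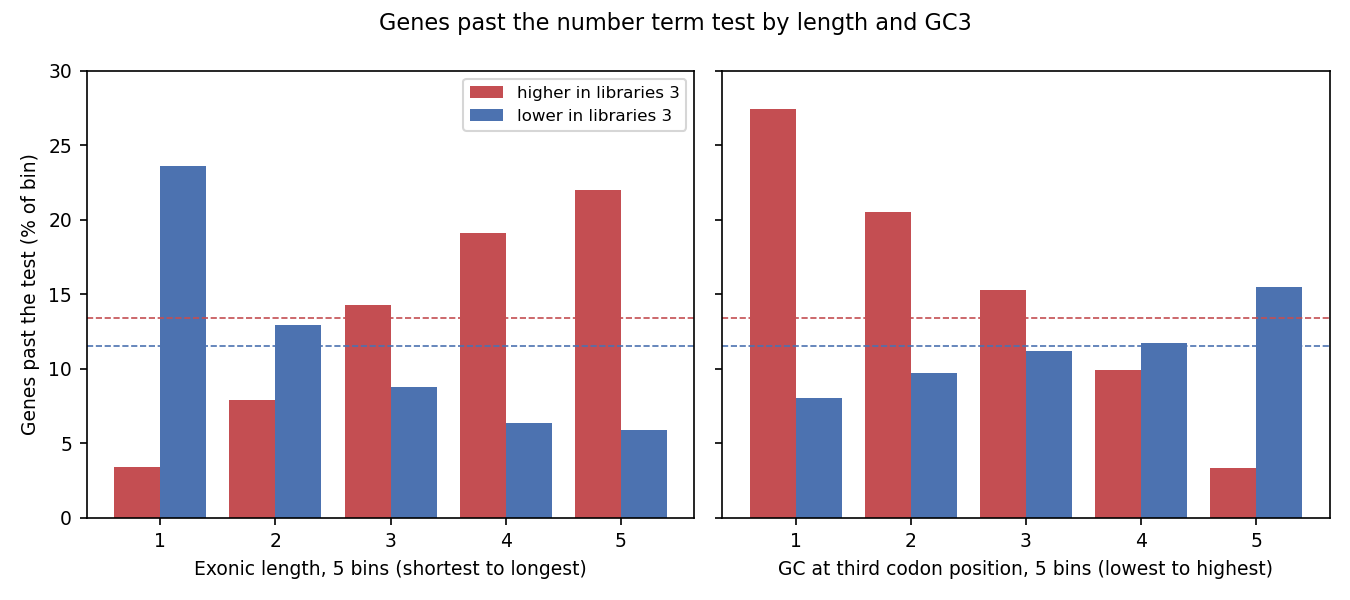
Share of genes (vertical axis, percent of the bin, from 0) that passed the number term test as higher (red) or lower (blue) in libraries 3, in 5 bins of exonic length (left) and of GC3 (right); dashed lines mark the shares over all tested genes, 13.4% higher and 11.5% lower. The share called lower falls from 23.6% in the shortest to 5.92% in the longest genes, and the share called higher falls from 27.4% to 3.35% from the lowest to the highest GC3.

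Few long noncoding RNAs were called higher in libraries 3. Of 1435 tested, 20 were higher (1.39%, against 13.4% of all genes) and 174 lower (12.1%, against 11.5%), with a median of -0.27. The share called also varied with abundance. Genes of all types at a mean of 0.735 FPKM or less had 2.34% higher and 6.01% lower, with a median of -0.17. Those at 14.4 FPKM or more had 19.3% higher and 19.1% lower. Whether abundance accounts for the low share of long noncoding RNAs called higher was not tested. Of 12139 protein-coding genes, 1852 were higher (15.3%) and 1366 lower (11.3%), with a median of 0.03. Sense-intronic transcripts had 0 higher and 19 lower of 78 tested, with a median of -0.56. With a correction for gene length and GC content in the fit, which called 13.6% of all genes higher and 10.6% lower, the medians were -0.19 for long noncoding RNAs and -0.28 for sense-intronic transcripts. As a share of all counts, long noncoding RNAs were at a mean of 1.02% over libraries 1 and 0.843% over libraries 3 (exact two-sided permutation p = 0.0556 within arms, 0.0973 adjusted over the 7 shares tested). Reads of such transcripts cannot be told apart from those of the overlapping host gene unless strand was used in counting, which is not given in the sources used here.

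All 13 mitochondrially encoded protein genes were lower in libraries 3 (against 11.5% of all genes), with a median of -0.91 and a range of -1.13 to -0.80. They encode core subunits of the respiratory chain and of ATP synthase. MT-CO1, the catalytic subunit of cytochrome c oxidase, was at 4425, 3309 and 2872 FPKM in NC libraries 1, 2 and 3 and at 5649, 3763 and 2786 FPKM in siRNA libraries 1, 2 and 3 (number term -0.80, SE 0.14, adjusted p = 0.000872). MT-ND3, a complex I subunit, was at 2840.0, 1619 and 1413 FPKM in the NC arm and 3798, 2523 and 1527 FPKM in the siRNA arm (-1.13, SE 0.13, adjusted p = 0.000106). In both genes libraries 1 were highest and libraries 3 lowest, and siRNA library 1 was the highest of all 6. MT-RNR2, the large mitochondrial ribosomal RNA, differed by -0.82 (SE 0.14, adjusted p = 0.000779). MT-ATP6 (-1.04) and MT-ATP8 (-1.13) overlap on the mitochondrial genome, so reads over both cannot be assigned to 1 of them.

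Mitochondrial transcripts made up 3.73%, 2.74% and 2.29% of all counts in NC libraries 1, 2 and 3 and 4.65%, 3.16% and 2.19% in siRNA libraries 1, 2 and 3. The mean of libraries 3 was 1.95 percentage points below that of libraries 1 (4.19% to 2.24%). The difference was -1.44 points in the NC arm and -2.46 points in the siRNA arm, and the exact two-sided permutation test within arms gave p = 0.0556, the smallest value that its 36 arrangements allow (0.0973 adjusted over 7 shares). The median of the 13 genes was -0.75 in the NC arm and -1.15 in the siRNA arm, and none of them passed the test of a difference between the arms. With the correction for gene length and GC content, all 13 were still lower, with a median of -0.58.

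The cytosolic ribosomal protein genes encode the protein part of the translating ribosome. Of 82, 47 were lower (57.3%, against 11.5% of all genes) and 1 higher (1.22%, against 13.4%), with a median of -0.48. Without siRNA library 3, 10 were lower, and without NC library 1, 22. RPLP1, an acidic stalk protein, was at 191, 128 and 106 FPKM in NC libraries 1, 2 and 3 and 228, 169 and 109 FPKM in siRNA libraries 1, 2 and 3 (-0.93, SE 0.12, adjusted p = 0.00016). RPL13, a large-subunit protein, differed by -0.86 (SE 0.11, adjusted p = 0.000192) and RPL19 by -0.89 (SE 0.12, adjusted p = 0.000248). In each of them libraries 3 were below libraries 1 in both arms. The 1 gene called higher was RPL7L1 (0.35, SE 0.11), a ribosome-biogenesis paralog, named after its value was seen. It lost the call in 9 of the 23 alternative fits, among them that with the length and GC correction (0.27, adjusted p = 0.0701, edgeR).

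As a share of all counts, ribosomal protein genes differed by -1.71 points in the NC arm and -1.69 points in the siRNA arm between library 3 and library 1, with means of 8.33% over libraries 1 and 6.63% over libraries 3. The order was not the same in both arms, because siRNA library 2 had the highest share of the 6, 8.96%. The exact two-sided permutation p was 0.167. With the correction for gene length and GC content, 5 of the 82 genes were higher and 38 lower, with a median of -0.33. That correction used exonic length and not coding length, and the median coding length of this list was 464 bases. After it, genes with 783 coding bases or fewer still had 225 higher and 506 lower of 2423. Genes with 2590 or more had 503 higher and 155 lower of 2418. Whether coding length accounts for what remained of the ribosomal protein difference was not tested. Many ribosomal protein genes have processed pseudogenes, and how reads shared with such copies were counted is not given in the sources used here.

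Nuclear genes of oxidative phosphorylation had 41 lower (53.9%, against 11.5% of all genes) and 6 higher (7.89%, against 13.4%) of 76, with a median of -0.40. ATP5F1D, the delta subunit of ATP synthase, was at 7.83, 5.25 and 3.73 FPKM in the NC arm and 9.42, 5.67 and 3.11 FPKM in the siRNA arm (-1.31, SE 0.16, adjusted p = 0.000121). COX5A, a subunit of cytochrome c oxidase, differed by -0.88 (SE 0.12, adjusted p = 0.000263), and ATP5IF1, the inhibitor of ATP synthase, by -0.82 (SE 0.12, adjusted p = 0.000327). The complexes did not move as a whole, since 6 subunit genes were called higher. ATP5F1A, the alpha subunit of ATP synthase with 1659 coding bases, was one of them and differed by 0.59 (SE 0.13); it was named after its value was seen. The median coding length over the list was 460 bases. With the length and GC correction, which leaves out coding length, 30 were lower and 7 higher, with a median of -0.26. Whether coding length accounts for that remainder was not tested.

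Mitochondrial ribosomal protein genes are nuclear genes for the ribosome of the organelle. Of 77, 31 were lower (40.3%, against 11.5% of all genes) and 5 higher (6.49%, against 13.4%), with a median of -0.31. Without siRNA library 3, 6 were lower. MRPS15 was at 44.1, 28.03 and 20.2 FPKM in the NC arm and 47.8, 36.1 and 20.1 FPKM in the siRNA arm (-1.16, SE 0.12, adjusted p = 7.04e-05). MRPL18 differed by -0.88 (SE 0.12) and MRPL43 by -1.01 (SE 0.15). With the correction for length and GC content the median was -0.08, with 19 lower and 11 higher.

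Among 25 long noncoding and snoRNA host genes, 12 were lower (48%, against 11.5% of all genes) and 3 higher (12%, against 13.4%), with a median of -0.34. NEAT1, the scaffold RNA of paraspeckles, was at 11.5, 6.96 and 6.12 FPKM in NC libraries 1, 2 and 3 and 13.9, 6.95 and 5.72 FPKM in siRNA libraries 1, 2 and 3 (-1.07, SE 0.13, adjusted p = 0.000153). NEAT1 is long (22767 exonic bases), so it ran against the direction of long genes. GAS5, a snoRNA host gene, differed by -0.74 (SE 0.11, adjusted p = 0.000326), and KCNQ1OT1, an imprinted antisense RNA, by -1.23 (SE 0.20, adjusted p = 0.000682). SNHG16, another snoRNA host, was higher by 0.65 (SE 0.14) and was named after its value was seen. The host-gene median was still -0.36 with the correction.

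Only 17 of 2302 small structured RNAs were tested, with a median of -0.70. Of these, 5 were lower (29.4%, against 11.5% of all genes) and 1 higher (5.88%, against 13.4%). RN7SL1, the RNA of the signal recognition particle, was at 68.3, 44.3 and 34.3 FPKM in the NC arm and 82.4, 63.0 and 37.3 FPKM in the siRNA arm (-1.04, SE 0.15, adjusted p = 0.000279). SNORD3A, the U3 small nucleolar RNA, differed by -1.22 (SE 0.23), while SNORD17 was higher by 1.65 (SE 0.29, adjusted p = 0.00104). RNAs this short are captured unevenly in libraries built for long RNA, and reads of snoRNAs encoded in introns cannot be told apart from those of the host intron.

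Of 16 tested replication-dependent histone genes, 1 was lower (6.25%, against 11.5% of all genes) and 0 higher (against 13.4%). Their median of -0.38 became -0.03 with the correction for length and GC content. The called gene was H1-2, a linker histone (-0.65, SE 0.16, adjusted p = 0.00857), which lost the call with that correction (-0.25, adjusted p = 0.247, edgeR). Immediate early genes, which respond within minutes to growth signals, had 7 lower (26.9%) and 3 higher (11.5%) of 26, with a median of -0.17. With the length and GC correction 4 were lower and 4 higher, with a median of -0.07. JUND, an AP-1 subunit, was at 25.6, 15.5 and 13.3 FPKM in the NC arm and 39.2, 22.3 and 14.7 FPKM in the siRNA arm (-1.17, SE 0.13, adjusted p = 9.01e-05). IER5, a growth-regulated transcription cofactor, differed by -0.58 (SE 0.12). Of 20 mesenchymal genes, 4 were lower (20%, against 11.5% of all genes) and 1 higher (5%, against 13.4%), with a median of -0.27. Their median was -0.09 in the NC arm, -0.33 in the siRNA arm and -0.11 with the length and GC correction. VIM, the intermediate filament vimentin, was at 825, 519 and 412 FPKM in the NC arm and 895, 659 and 437 FPKM in the siRNA arm (-0.99, SE 0.13, adjusted p = 0.000178). ZEB1, a repressor of epithelial genes, was the 1 called higher (0.37, SE 0.11). It lost the call in 9 of the 23 alternative fits, and with the length and GC correction it was at 0.22 (adjusted p = 0.104, edgeR).

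**Figure D4:**
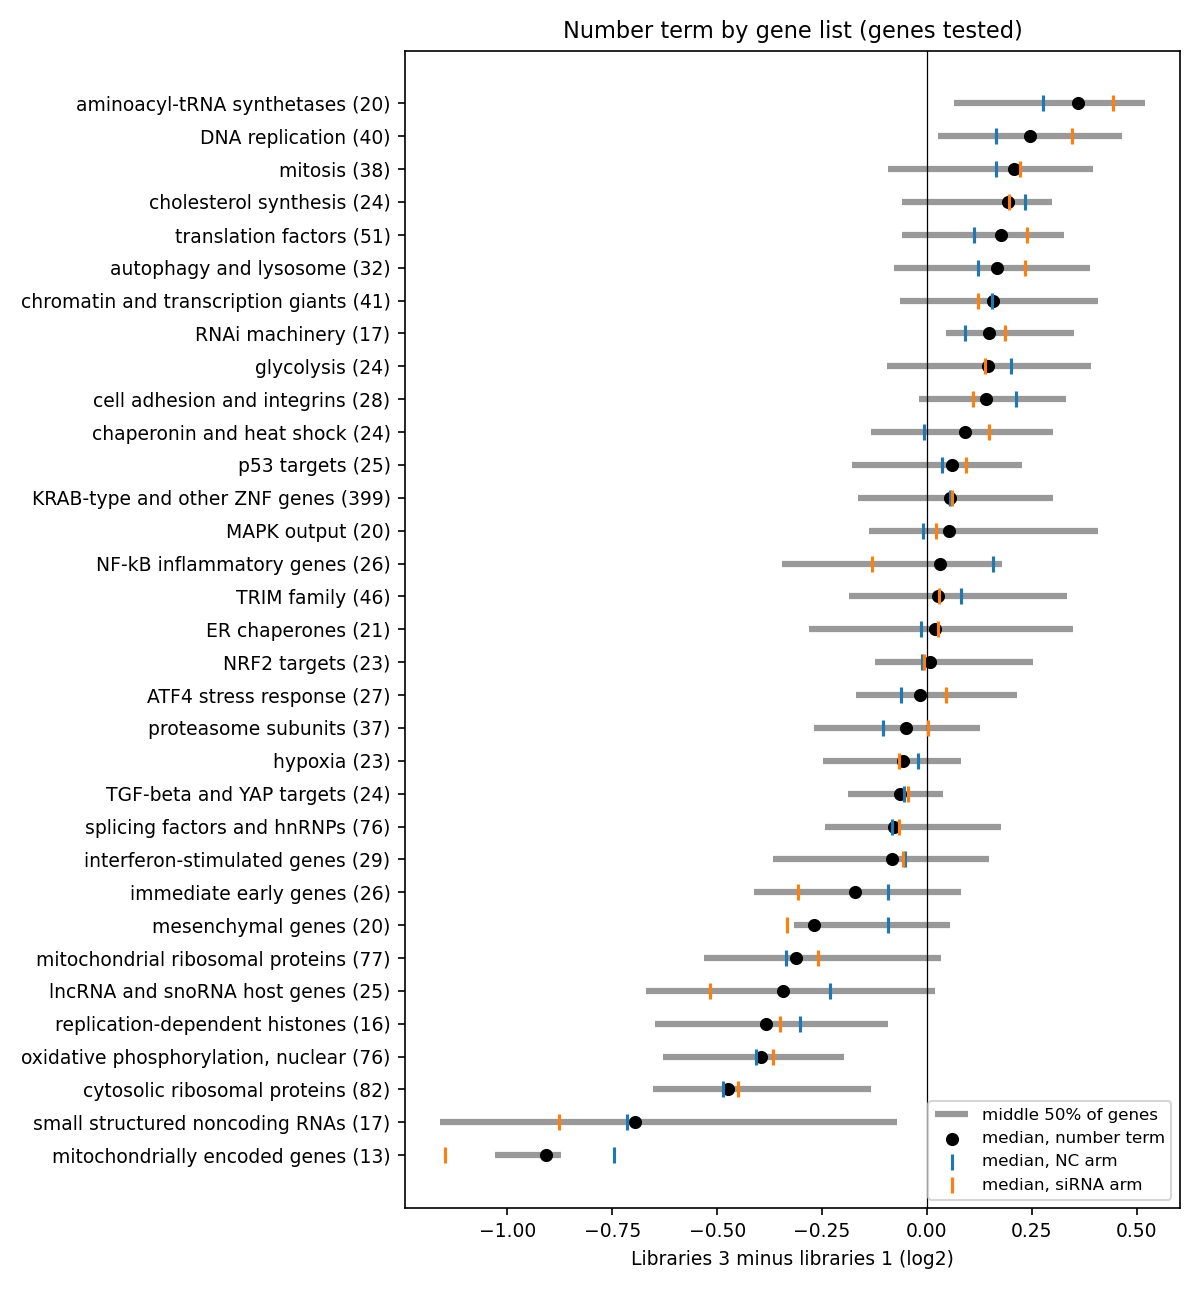
Number term (horizontal axis, log2, libraries 3 minus libraries 1) for gene lists with at least 13 tested genes, the number tested in parentheses: dot, list median; grey bar, middle 50% of genes; blue and orange ticks, medians of the NC and siRNA arms. Mitochondrially encoded genes lie at -0.91, cytosolic ribosomal proteins at -0.48 and aminoacyl-tRNA synthetases at 0.36, and for these 3 lists both arm medians lie on the same side of 0.

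The aminoacyl-tRNA synthetases, which attach amino acids to their tRNAs, had the highest median of the 38 lists, 0.36. Of 20, 10 were higher (50%, against 13.4% of all genes) and 2 lower (10%, against 11.5%). EPRS1, the enzyme for glutamate and proline, was at 129, 175 and 195 FPKM in NC libraries 1, 2 and 3 and 103, 157 and 184 FPKM in siRNA libraries 1, 2 and 3 (0.74, SE 0.13, adjusted p = 0.00115). IARS1, the isoleucine enzyme, differed by 0.71 (SE 0.12, adjusted p = 0.00062) and LARS1, the leucine enzyme, by 0.58 (SE 0.11, adjusted p = 0.00152). Libraries 3 were above libraries 1 in both arms in all 3. The list median was 0.25 with the length and GC correction, with 8 higher and 2 lower.

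Translation factors had 12 higher (23.5%, against 13.4% of all genes) and 3 lower (5.88%, against 11.5%) of 51, with a median of 0.18. EIF3L, a subunit of the initiation factor eIF3, was at 29.2, 57.3 and 63.8 FPKM in the NC arm and 28.4, 42.7 and 63.5 FPKM in the siRNA arm (1.17, SE 0.14, adjusted p = 0.000115). EIF5B, the factor for subunit joining, ran the other way with -0.73 (SE 0.11, adjusted p = 0.000406). EEF1A1, the elongation factor that brings charged tRNAs to the ribosome, was higher by 0.50 (SE 0.16, adjusted p = 0.0294) at 1171 to 1670 FPKM. It lost the call in 10 of the 23 alternative fits, and with the length and GC correction it was at 0.40 (adjusted p = 0.104, edgeR). Genes of the protein synthesis machinery thus stood on both sides. With upper quartile scaling the translation factors had 7 higher and 7 lower.

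DNA replication genes had 15 higher (37.5%, against 13.4% of all genes) and 3 lower (7.5%, against 11.5%) of 40, with a median of 0.25. MCM2, a subunit of the replicative helicase, was at 6.35, 10.9 and 13.2 FPKM in the NC arm and 5.20, 6.11 and 12.4 FPKM in the siRNA arm (1.18, SE 0.14, adjusted p = 0.000121). ORC1, a subunit of the origin recognition complex, differed by 0.95 (SE 0.14, adjusted p = 0.000347) and RFC1, the large subunit of the clamp loader, by 0.74 (SE 0.11, adjusted p = 0.000316). The 3 genes called lower, named after their values were seen, were PCNA, the sliding clamp (-0.62, SE 0.12, 783 coding bases), POLA2, a subunit of DNA polymerase alpha (-0.82, SE 0.16), and UHRF1, a reader of hemimethylated DNA (-0.37, SE 0.11). PCNA lost the call in 2 of the 23 alternative fits, with all 12 libraries and without siRNA library 3, and UHRF1 lost it in 7. Whether the share of dividing cells differed between the libraries was not tested.

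Mitosis genes had 13 higher (34.2%, against 13.4% of all genes) and 4 lower (10.5%, against 11.5%) of 38, with a median of 0.21. ECT2, a guanine nucleotide exchange factor needed for cytokinesis, was at 73.8, 106 and 126 FPKM in the NC arm and 67.9, 89.7 and 129 FPKM in the siRNA arm (0.87, SE 0.11, adjusted p = 0.000178). SMC2, a condensin subunit, differed by 0.80 (SE 0.12) and PLK1, a mitotic kinase, by 0.80 (SE 0.13). UBE2C, the ubiquitin-conjugating enzyme of the anaphase-promoting complex, differed by -0.67 (SE 0.11, 537 coding bases) and was named after its value was seen. The medians with the length and GC correction were 0.22 for replication and 0.18 for mitosis.

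Cytosolic chaperones made up 3 of the 5 most abundant genes called higher. HSPA8, the constitutive HSP70 chaperone, was at 399, 809.9 and 877 FPKM in NC libraries 1, 2 and 3 and 281, 554 and 803 FPKM in siRNA libraries 1, 2 and 3 (1.35, SE 0.18, adjusted p = 0.000199). HSP90AB1, a cytosolic HSP90, differed by 0.78 (SE 0.13, adjusted p = 0.00079) and HSP90AA1, its inducible paralog, by 0.67 (SE 0.16, adjusted p = 0.00671). HSPE1, the mitochondrial HSP10, ran the other way (-0.66, SE 0.14, adjusted p = 0.0037). The list of 24 chaperonin and heat shock genes had 4 higher (16.7%, against 13.4% of all genes) and 2 lower (8.33%, against 11.5%). Its median of 0.09 became -0.06 without siRNA library 1.

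Glycolysis genes had 8 higher (33.3%, against 13.4% of all genes) and 1 lower (4.17%, against 11.5%) of 24, with a median of 0.15. ALDOA, aldolase, was at 8.02, 11.8 and 13.1 FPKM in the NC arm and 8.67, 10.3 and 13.8 FPKM in the siRNA arm (0.71, SE 0.12, adjusted p = 0.000801). HK1, a hexokinase, differed by 0.57 (SE 0.12) and ENO1, enolase, by 0.46 (SE 0.13, adjusted p = 0.0197). The 1 called lower was SLC16A3, the lactate exporter MCT4 (-0.55, SE 0.11).

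Autophagy and lysosome genes had 10 higher and 2 lower of 32 (median 0.17), with PSAP, the precursor of the saposins, at 0.62 (SE 0.12), and NPC2, a small cholesterol carrier, at -0.68 (SE 0.13). Large chromatin and transcription regulators had 12 higher and 2 lower of 41 (median 0.16), with MED1, a Mediator subunit, at 0.73 (SE 0.12). Cholesterol synthesis genes had 6 higher and 3 lower of 24 (median 0.19), with EBP, a sterol isomerase, at -0.67 (SE 0.14). Adhesion and integrin genes had 5 higher and 0 lower of 28 (17.9% higher against 13.4% of all genes, median 0.14), with ITGA6 at 0.59 (SE 0.11) and ITGB1 at 0.43 (SE 0.12), an integrin alpha and beta chain. Genes of the RNA interference machinery, through which an siRNA acts, had 4 higher and 0 lower of 17 (median 0.15), with XPO5, the exporter of microRNA precursors, at 0.56 (SE 0.11). Over all tested genes, 13.4% were higher and 11.5% lower. In these 5 lists each of the 23 alternative fits gave a median above 0, but the calls did not hold in all of them. Without siRNA library 3, none of the 5 lists had a gene called higher.

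Several other lists had members on both sides, where 13.4% of all tested genes were higher and 11.5% lower. TRIM family genes had 10 higher and 2 lower of 46 with a median of 0.03, which was -0.05 with upper quartile scaling, and TRIM14 (0.74, SE 0.13) and TRIM44 (0.63, SE 0.12) had the smallest p. Zinc finger genes had 42 higher and 23 lower of 399, a share of 10.5% higher. Proteasome subunits had 5 higher and 4 lower of 37, splicing factors 10 higher and 12 lower of 76, and hypoxia genes 3 and 3 of 23. The ATF4 stress response had 4 and 4 of 27, with DDIT3, a transcription factor of that response, at -0.71 (SE 0.13). NF-kB target genes had 3 higher and 2 lower of 26, with BIRC3, an inhibitor of apoptosis, at 0.71 (SE 0.11) and NFKBIA, the inhibitor of NF-kB, at -0.55 (SE 0.12). Output genes of the MAPK pathway had 3 higher and 2 lower of 20, with CCND1, cyclin D1, at 0.52 (SE 0.11) and DUSP6, an ERK phosphatase, at -0.59 (SE 0.14). Interferon-stimulated genes had 4 higher and 5 lower of 29, and p53 targets 5 higher and 3 lower of 25.

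The largest changes among protein-coding genes at 5 FPKM or more were of similar size in both directions. Upward, the 15 largest ran from 1.14 in SEC24C, a COPII coat protein, to 1.42 in IGF2BP3, an mRNA-binding protein. IGF2BP3 was at 6.86, 12.2 and 15.8 FPKM in NC libraries 1, 2 and 3 and 5.41, 9.23 and 16.2 FPKM in siRNA libraries 1, 2 and 3 (SE 0.13, adjusted p = 3.02e-05), so that both libraries 3 were above both libraries 2. The list also held WDR48, an activator of ubiquitin-specific proteases (1.34, SE 0.12), IPO11, a nuclear import receptor (1.23, SE 0.11), RECQL, a DNA helicase (1.21, SE 0.12), RAB23, a small GTPase (1.20, SE 0.13), ARHGAP5, a GTPase-activating protein (1.15, SE 0.13), and CSNK1A1, casein kinase 1 alpha (1.18, SE 0.13), together with ZNF770 and MMGT1. CSNK2A3 (1.40, SE 0.18) is a near-identical copy of CSNK2A1, and the split of reads between them is uncertain.

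Downward, the 15 largest ran from -1.10 in VEGFB, a growth factor, to -1.56 in GOLGA8A, a member of a family of near-identical golgins whose reads may be split. SH3BGRL3, a small thioredoxin-like protein, was at 118, 73.2 and 57.4 FPKM in the NC arm and 148, 95.0 and 56.4 FPKM in the siRNA arm (-1.19, SE 0.12, adjusted p = 4.24e-05). Libraries 3 of the 2 arms were within 1 FPKM of each other, while siRNA library 1 exceeded NC library 1. MPC1, a subunit of the mitochondrial pyruvate carrier (-1.29, SE 0.18), RELL1, a relative of the TNF receptor family member RELT (-1.24, SE 0.14), FOXF2, a forkhead factor (-1.14, SE 0.14), PAXX, a DNA end-joining factor (-1.11, SE 0.18), PPDPF (-1.14, SE 0.15) and HCFC1R1 (-1.12, SE 0.15) were also among them. TMSB10, an actin-binding thymosin with 132 coding bases, was the most abundant nuclear gene called lower, at 3000.3, 2481 and 1937 FPKM in the NC arm and 3601, 2914 and 2106 FPKM in the siRNA arm (-0.68, SE 0.12, adjusted p = 0.000975). TMSB10 lost the call with the length and GC correction (-0.29, adjusted p = 0.0582, edgeR) and without siRNA library 3. All 15 downward and all 15 upward genes of the largest changes, to which TMSB10 does not belong, still passed the test with that correction.

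The same replicate numbers did not order the K1 libraries in the same way. With 1 number term for both K1 arms, 0 of 17447 genes were called (158 at an unadjusted p under 0.05), and the difference of that term from TPC-1 was called in 0 genes (2371 at an unadjusted p under 0.05; DESeq2 called 68 higher and 323 lower). Over these genes the deviations from the arm means correlated across genes at -0.491, 0.0864 and -0.526 between K1 libraries of the same number, at 0.577 between NC library 1 and siRNA library 3, and at 0.453 between NC library 3 and siRNA library 1. Without K1 NC library 3 the difference of the term from TPC-1 was called in 341 higher and 215 lower, without K1 siRNA library 3 in 116 and 59, and without K1 NC library 1 in 0 and 3. A fit with a separate number term in each K1 arm, added after these values were seen, called 2.79% of genes in K1 NC (133 higher, 0.762%, and 354 lower, 2.03%) and 12.5% in K1 siRNA (1527 higher, 8.75%, and 658 lower, 3.77%). The terms of the 2 K1 arms differed in 24.8% of genes, 2685 higher (15.4%) and 1647 lower (9.44%) in siRNA. K1 NC differed from TPC-1 in 2.13% of genes and K1 siRNA in 20%.

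Gene classes that moved together in TPC-1 took opposite directions in the K1 arms. The median of cytosolic ribosomal protein genes was -0.67 in K1 NC and 0.84 in K1 siRNA, and the arms differed in 80 of 82 genes, against 24.8% of all genes. Nuclear oxidative phosphorylation genes had medians of -0.65 and 0.86 and differed in 67 of 76. S100A11 differed by -0.86 in K1 NC and by 1.04 in K1 siRNA. Among 6174 genes at 5 FPKM or more, 62.5% had the sign of the TPC-1 term in K1 NC and 40.2% in K1 siRNA.

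As a list, mitochondrially encoded genes did not follow that division. Their medians were -0.11 in K1 NC and -0.21 in K1 siRNA against -0.91 in TPC-1, and 4 and 7 of the 13 passed the test as higher in K1 NC and K1 siRNA than in TPC-1, where 1.29% and 12.1% of all genes did. Of the 13, 2 differed between the K1 arms: MT-ND3 (-1.08 in K1 NC, 0.75 in K1 siRNA) and MT-CO2 (-0.48 and 0.42). Mitochondrial transcripts made up 3.14% to 3.97% of all counts in the 6 K1 libraries and 2.19% to 4.65% in the 6 TPC-1 libraries. The lower mitochondrial share and the lower ribosomal protein share therefore occurred together in TPC-1 and apart in K1 siRNA, where the ribosomal protein share was 2.53 points higher in library 3 than in library 1 and the mitochondrial share 0.459 points lower.

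**Figure D5:**
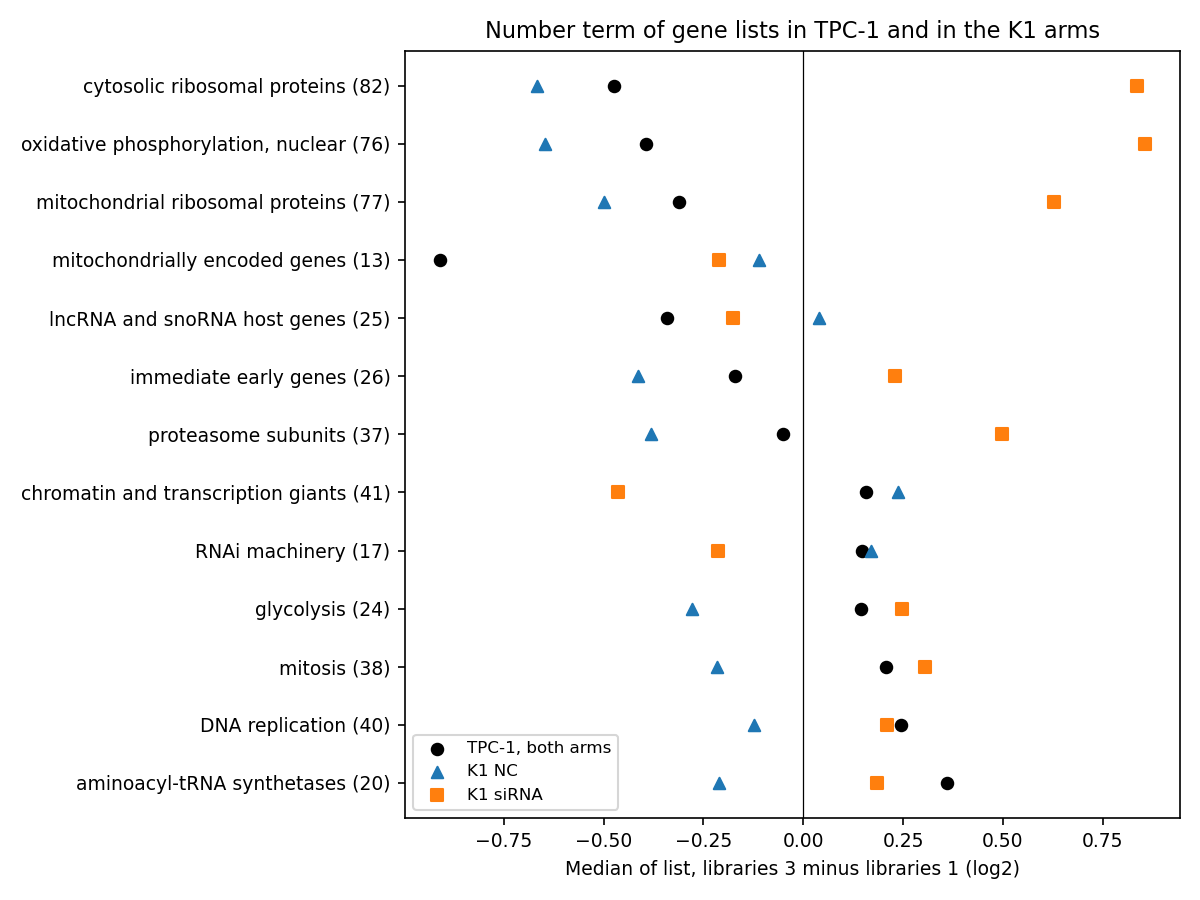
Median number term (horizontal axis, log2, libraries 3 minus libraries 1) of 13 gene lists in TPC-1 (black), K1 NC (blue triangles) and K1 siRNA (orange squares), the number of genes tested in parentheses. Ribosomal protein genes lie at -0.48 in TPC-1, -0.67 in K1 NC and 0.84 in K1 siRNA, whereas mitochondrially encoded genes lie at -0.91, -0.11 and -0.21.

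The siRNA contrast of TPC-1 depended on how the number was treated in the fit. With the linear number term, 1 gene was called for siRNA against NC (0.00688% of 14530, with 710 at an unadjusted p under 0.05). It was SULF1, an extracellular sulfatase, with 0 counts in all 3 NC libraries and 21, 24 and 23 counts in siRNA libraries 1, 2 and 3 (adjusted p = 0.0189). Without the number term 0 genes were called (150 at an unadjusted p under 0.05), and with the number as a replicate block 7 were higher and 1 lower (1366 at an unadjusted p under 0.05). JUND and NCAPD3, a condensin subunit, were among those 8. JUND had 912, 538 and 466 counts in NC libraries 1, 2 and 3 and 1401, 883 and 636 in siRNA libraries 1, 2 and 3, so that its siRNA library 3 was below its NC library 1 while each siRNA library exceeded the NC library of the same number (0.44, SE 0.09, adjusted p = 0.0454). NCAPD3 had 1227, 1317 and 1822 counts in the NC arm and 954, 1041 and 1549 in the siRNA arm, lower at each number (-0.48, SE 0.07, adjusted p = 0.00238).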

How the data were processed

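RNA-seq of 6 TPC-1 libraries was analysed, with 6 K1 libraries as a comparison. Per the labels' protocols, TRIzol extraction was followed by cDNA synthesis from random primers. Per the submitters' processing notes, cutadapt 1.9.1 and build hg38 were used; aligner, counter and strand setting: not given in the sources used here. In 1 table of 61806 genes, the authors deposited raw gene counts and FPKM. The deposited FPKM equal the counts divided by exonic length and by the count total. Replicate pairs within a TPC-1 arm differed by 12.9 to 58.9 times counting noise (chi-square per degree of freedom), so none was merged.

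The deposited counts were fitted in edgeR 4.0.16 (R 4.3.3) with TMM scaling, its low-count filter by treatment (14530 genes left), treatment and the number coded -0.5, 0, 0.5 (3 residual degrees of freedom), with Benjamini-Hochberg adjustment at 0.05. SE is the absolute coefficient over the root of F. On simulated TPC-1 counts for 14530 genes the fit recovered 32.8%, 76.1% and 97.0% of genes with a log2 change of 0.5, 1 and 2, with 7 false calls. Only 67, 67 and 66 genes were given these changes, against 3613 called in the data, so recovery there may differ. The simulated libraries were drawn independently, so a difference shared by libraries of 1 number could not appear among the false calls. Length and GC corrections are spline offsets (5 degrees of freedom) in the deposited exonic gene length and in GC content from GENCODE release 29. Coding length was not part of them. GENCODE release 29 gave a biotype for 98.7% of tested genes. Alternatives used DESeq2 1.42.0 and limma 3.58.1 on log2(FPKM + 0.1).

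Same-numbered TPC-1 libraries of the 2 arms deviated together from their arm means (r = 0.542, 0.159 and 0.575 for numbers 1, 2 and 3, against at most 0.115 for unlike numbers), so the numbers were taken to pair the arms. Over the 17447 genes tested together with K1, r was 0.379, 0.0857 and 0.406. The labels state no pairing.

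Named genes are TRIM35, the 15 largest called changes per direction among protein-coding genes at 5 FPKM or more whose libraries 1 and 3 do not overlap, the 5 most abundant called genes per direction and the 3 of smallest p per list; some of these are not reported here. The libraries, the 38 lists and the bins were chosen with earlier results of these data known, and lists are described by counts and medians without a test. Figures were drawn with matplotlib 3.10.9. The number of libraries limits the precision, and intervals from counts would cover counting error only.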

Additional observations from a re-analysis of the deposited data

Results flagged for a closer look

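In the edgeR fit with 1 term per K1 arm, 17447 genes were tested. The number term differed between K1 siRNA and K1 NC libraries in 2685 genes that were higher in siRNA (15.4%) and 1647 that were lower (9.44%). It differed between K1 NC and TPC-1 in 225 higher and 147 lower genes (together 2.13%), and between K1 siRNA and TPC-1 in 2105 higher and 1386 lower genes (together 20%).

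Of the genes with the largest changes in TPC-1 (15 per direction), 18 differed in number term between the K1 arms, against 24.8% of all genes. These genes were limited to 5 FPKM or more, and abundant genes differed more often. Of the 2906 genes in the highest 5th of mean FPKM in TPC-1, 1368 were higher and 69 lower in K1 siRNA than in K1 NC. As K1 siRNA minus K1 NC on the log2 scale, 11 that were lower in TPC-1 libraries 3 gave positive values: ATP5F1D 2.53, PPDPF 2.15, RELL1 1.97, SH3BGRL3 1.92, S100A11 1.89, MT-ND3 1.83, JUND 1.7, MRPS15 1.57, VEGFB 1.45, HCFC1R1 1.09 and MPC1 0.969. The exception among these lower genes was GOLGA8A with -2.19. The 6 that were higher in TPC-1 libraries 3 gave negative values: IGF2BP3 -1.21, ZNF770 -1.14, ARHGAP5 -1.04, SEC24C -1.02, RECQL -0.842 and WDR48 -0.827. These genes were chosen in TPC-1, and the K1 libraries had no part in that choice.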

How the results depend on the processing

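The TPC-1 number term called 1940 genes higher and 1673 lower. The count moved by more than 1.5 times with upper quartile scaling (1272 higher, 2198 lower, so that 36.7% of calls were higher against 53.7%), with limma on unfiltered FPKM (372 and 591), with all 12 libraries in the fit (714 and 224, 76.1% higher) and with libraries 1 and 3 alone (3179 and 3000). Leaving out 1 library gave 353 to 2698 higher and 384 to 2284 lower. With the number as a 3-level replicate block, 2828 were higher and 2385 lower. The pairing behind that block was read from these same counts, so it gives the larger count no support. Over the 23 alternatives the median of all genes moved by under 0.1 and none of the 117 named genes followed changed direction. Of their calls, 49 were lost with all 12 libraries, 44 without siRNA library 3, 41 with unfiltered limma, 26 without NC library 1 and at most 10 in each other alternative. The medians of proteasome, heat shock, zinc finger, ATF4, ER chaperone, MAPK, NF-kB, interferon, p53, NRF2, epithelial, TRIM, thyroid and endothelial lists changed sign in at least 1.

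The difference between the lines was called in 68 higher and 323 lower genes by DESeq2 and in 0 to 341 higher and 0 to 215 lower on leaving out 1 library. For siRNA against NC, 0 genes were higher without the number term, and 7 higher and 1 lower with the replicate block. The share of counts from nuclear genes of short exonic length was -1.92 points in libraries 3 against libraries 1 over all counts and -1.9 over the counts of tested genes. In siRNA libraries 1, 2 and 3 it was 11.7%, 12% and 9.82% of all counts, so library 2 was the highest. The causes were not tested. With 2 libraries at each number, changes of 0.5 on the log2 scale were often missed in simulated data. Far fewer genes changed in that simulation than were called here.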
